A study of Gorilla gorilla with 12 samples.

Results

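The genes described here are those of MHC class I and antigen processing in cultured gorilla fibroblasts. Members were all probe sets whose annotation gives exactly 1 gene symbol, taken from a list of 9 genes: HLA-B, HLA-C, HLA-E, HLA-F, HLA-G, B2M, TAP1, PSMB8 and PSMB9. That rule found 11 probe sets of 7 genes, out of 8229 genes with a single symbol on the array. HLA-B and HLA-C have no member probe set, because the probe set that matches them carries both symbols. All 11 members passed the filter on dim probe sets, and 9 of them stood above the lowest deposited value, 100, on every standard array.

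The series holds 12 expression arrays of Gorilla gorilla fibroblast lines, connective tissue cells grown in culture. Of these, 11 arrays held RNA of 11 lines harvested under what the labels call standard conditions, with 1 array a line. The 6 lines labelled female came from normal donors of 19, 19, 35, 26, 30 and 2 years, numbered here female 1 to 6, and the 5 labelled male from normal donors of 19, 26, 24, 18 and 3 years, numbered male 1 to 5. The array at 50% confluence held a second culture of line KB_7621, called male 2 here, from the 26-year-old donor. The labels name no treatment, and a line is a single animal. How dense the cells were at the standard harvest is not stated.

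MHC class I molecules carry peptides from inside the cell to its surface, where T cells and natural killer cells read them. The heavy chain is an HLA protein, and it needs B2M, beta-2-microglobulin, to fold and leave the endoplasmic reticulum. Peptides are cut by the proteasome, in which PSMB8 and PSMB9 are catalytic subunits of the interferon-inducible immunoproteasome, and TAP1 is one part of the transporter that brings them into the endoplasmic reticulum. Nearly all nucleated cells, fibroblasts among them, carry class I on their surface. In the gorilla gene table, TAP2, PSMB8, TAP1 and PSMB9 follow one another on 1 chromosome with 0 other protein-coding genes between them.

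Intensities are as deposited, on a linear scale. Differences and spreads are in log2 units after quantile normalization of the arrays. The probes were designed on human sequence and can bind gorilla transcripts less well where the species differ, so no level of a probe set is set against another's. Probe sets ending in _f_at match several members of a gene family and those in _s_at several transcripts. The _f_at probe sets annotated to HLA-F and HLA-G are therefore read as signal of the class I family, and the gene measured is uncertain. In bulk RNA, fewer cells of a type and less RNA per cell cannot be told apart.

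The arrays differed in signal beneath these values. Between 40.1% and 49.2% of the 12625 probe sets stood at 100, the fewest on the standard array of male 2 and the most on that at 50% confluence. Of the fibroblast markers with a probe set, 12 of 12 exceeded 1000 on at least 1 array. Of 13 leukocyte markers, 7 were at 100 on all 12 arrays, PTPRC, the pan-leukocyte marker, among them. Another 2 exceeded 1000 on at least 1 array. These were CD14, at 100 to 1673 over the standard lines, and CD68, at 420 to 1080. Of 6 endothelial and 6 keratinocyte markers 1 each exceeded 1000, and of 4 melanocyte markers 0. The line labelled female 3 had an intensity of 2595 for the Y-linked gene RPS4Y1, against 100 to 115 in the other lines labelled female and 2662 to 4363 in the males. It goes against its label, and the values it moves most are given with and without it.

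HLA-E, a class I molecule of low polymorphism that shows leader peptides of other class I proteins to natural killer cells, was measured by 1 probe set that is not marked as matching the family. Its intensities in females 1 to 6 were 328, 210, 709, 355, 108 and 199. In males 1 to 5 they were 175, 426, 230, 386 and 100. The line labelled female 3 stood highest and male 5 was at the lowest deposited value, with female 5 just above it. The highest value was at least 7.09-fold the lowest, and the groups labelled by sex overlapped.

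HLA-F, a class I molecule held largely inside the cell, had 2 probe sets, one ending in _i_at and one in _f_at. On the _i_at probe set females 1 to 6 had 658, 151, 437, 336, 100 and 780, and males 1 to 5 had 167, 496, 189, 163 and 100. Female 5 and male 5 were at the lowest value there, and females 6 and 1 were highest. The family-matching _f_at probe set ran from 1062 in female 5 to 3336 in male 2, with a median of 2446. The 2 probe sets had r = 0.77 over the 11 standard arrays.

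HLA-G, known in humans mainly from the placenta, had 2 family-matching _f_at probe sets, called here the brighter and the dimmer. On the dimmer, females 1 to 6 had 1367, 853, 1866, 1406, 741 and 1148, and males 1 to 5 had 855, 1315, 969, 930 and 907. On the brighter the values ran from 932 in female 5 to 4104 in the line labelled female 3, with a median of 1540. Again female 5 was lowest and the line labelled female 3 highest on both. The mean on the brighter was 2273 ± 1384 (SD, n = 6) in females, or 1907 ± 1179 (SD, n = 5) without the line labelled female 3. In males it was 1646 ± 324 (SD, n = 5).

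B2M, the light chain, had 3 probe sets, one ending in _at and a brighter and a dimmer one in _s_at. On the _at probe set, females 1 to 6 had 9907, 7063, 11072, 11853, 6981 and 10342, and males 1 to 5 had 6971, 10061, 8723, 9300 and 8391. On the dimmer _s_at probe set the values ran from 9262 in female 5 to 17407 in male 2. These 2 ordered most lines alike, with r = 0.89 over 11 arrays. The brighter _s_at probe set ran from 9974 in male 3 to 31535 in male 2, and had r = 0.092 with the _at and -0.13 with the dimmer _s_at probe set. It also moved with the share of probe sets at the lowest value (r = -0.79, rho = -0.69, permutation p = 0.0038 and 0.021, adjusted p = 0.05001 for r over 22 relations added after the data were seen). Without males 2 and 3, the arrays farthest from the median of that share, r was -0.52. The part of array signal in its values was not tested.

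TAP1, the transporter subunit, had intensities of 218, 172, 302, 322, 336 and 215 in females 1 to 6. In males 1 to 5 it had 404, 314, 400, 196 and 336. Males 1 and 3 were the highest and female 2 the lowest, a ratio of 2.35. The male and female values overlapped.

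PSMB8, an immunoproteasome subunit, was measured by a probe set ending in _s_at, which can match several transcripts. It had 312, 352, 468, 387, 412 and 262 in females 1 to 6. In males 1 to 5 it had 552, 156, 449, 304 and 392. Male 1 was highest, and male 2, one of the brighter lines for HLA-E and the family-matching HLA-F probe set, was lowest. PSMB9, its partner in the immunoproteasome, had 1045, 569, 646, 801, 813 and 759 in the female lines and 1644, 556, 678, 754 and 711 in the male lines. Male 1 was highest and male 2 lowest for PSMB9 as well.

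**Figure D1:**
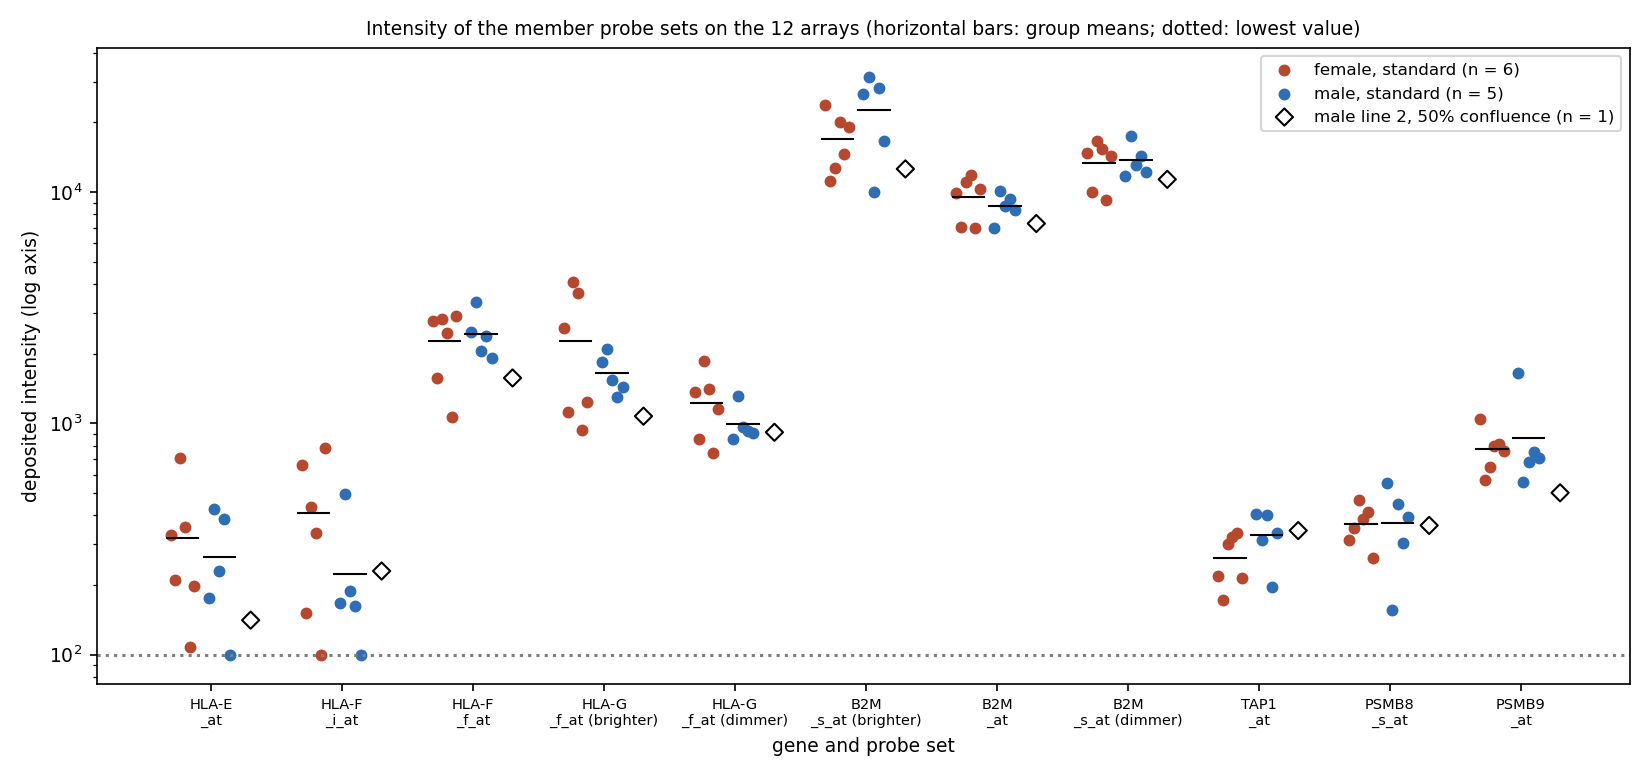
Deposited intensity (log axis) of the 11 member probe sets, with 1 point an array, for 6 female and 5 male standard lines and the culture at 50% confluence. The horizontal bars are group means and the dotted line is the lowest deposited value of 100, which HLA-E reached in male 5 and the HLA-F _i_at probe set in female 5 and male 5.

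Spread between lines differed among the members. The SD over the 11 lines was 1.07 log2 units for the HLA-F _i_at probe set, 0.85 for HLA-E and 0.68 for the brighter HLA-G probe set. These lie at percentiles 98.9, 96.3 and 89.8 of the SDs of the 7541 probe sets tested, whose median SD was 0.41. After quantile normalization the light chain varied least, with SDs of 0.27, 0.27 and 0.39 on its 3 probe sets. As deposited, the highest value of its brighter _s_at probe set was 3.16-fold the lowest. That was above PSMB9 (2.96), the dimmer HLA-G probe set (2.52) and TAP1 (2.35). The B2M _at and dimmer _s_at probe sets had ratios of 1.70 and 1.88. PSMB8 had an SD of 0.57, TAP1 0.46 and PSMB9 0.43. HLA-E and the HLA-F _i_at probe set include values at the lowest intensity, and with a floor of 200 their SDs were 0.60 and 0.79.

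The class I heavy chain probe sets ordered the lines in a similar way. Female 5 was among the 3 lowest lines on 5 of 5 HLA probe sets, and females 1 and 3 and male 2 were among the 3 highest on 4, 3 and 3 of them. The mean of the 5 was 8.58 log2 units in female 5 and 10.5 in the line labelled female 3. In female 5 the probe set that carries both the HLA-B and HLA-C symbols had 5348, against 9855 to 17981 in the other standard lines. HLA-J, a class I pseudogene, had 918 on a family-matching probe set in female 5 and 1419 to 3108 in the others. Neither is a member, both match the family, and both were named after their values were seen.

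**Figure D2:**
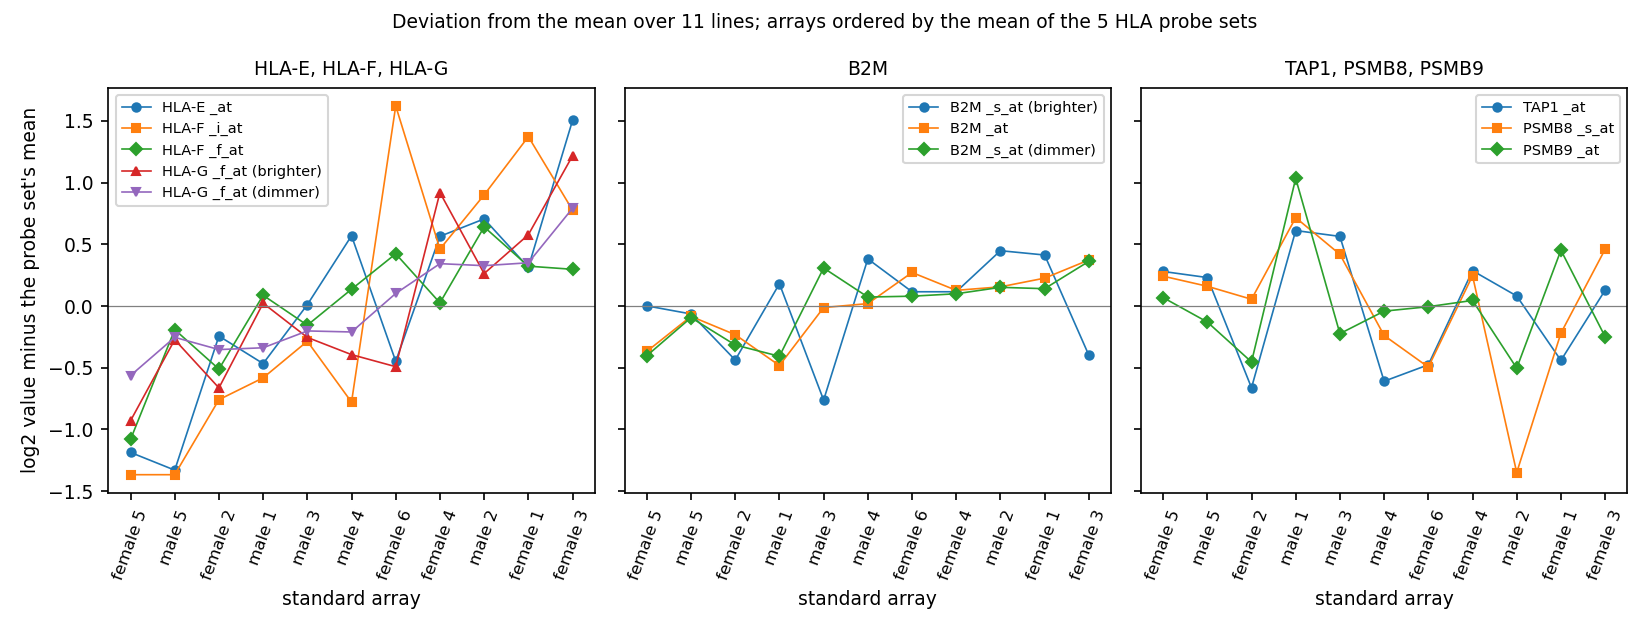
Deviation of each member probe set from its mean over the 11 standard arrays, in log2 units, with the arrays ordered by the mean of the 5 HLA probe sets. The HLA probe sets and the B2M _at and dimmer _s_at probe sets tend upward from left to right, from female 5 to the line labelled female 3, and TAP1, PSMB8 and PSMB9 show no such order, with male 1 highest for all 3.

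Relations between members were computed for 51 pairs, 50 of them pairs of member probe sets of different genes and the other PSMB9 with IRF1. Of these, 5 had been planned, and planned relations with HLA-B could not be computed without a member probe set. The other 46 were added after the data were seen. The one with the highest r was the dimmer HLA-G probe set with the B2M _at probe set, at r = 0.87 (permutation p = 6e-04, adjusted p = 0.031 over the 51) and rho = 0.90 (permutation p = 0.00035, adjusted p = 0.018). Without females 1 and 3 r was 0.82, and without female 3 alone, or female 5 alone, it was 0.84. The same HLA-G probe set with the dimmer B2M _s_at probe set had r = 0.77 (permutation p = 0.0066, adjusted p = 0.060) and rho = 0.85 (permutation p = 0.0014, adjusted p = 0.035), and r was 0.68 without females 1 and 3. For r, 1 of the 51 pairs passed the threshold of 0.05 after adjustment.

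HLA-E and B2M, the pair least touched by family-matching probes, gave an answer that turned on the B2M probe set. The planned relation used the brighter _s_at probe set and had r = 0.053 (permutation p = 0.88, adjusted p = 0.89 over the 5 planned) and rho = 0.27 (permutation p = 0.41). With the _at probe set r was 0.67 and rho 0.67 (permutation p = 0.025 and 0.028, adjusted p = 0.13 and 0.14 over the 51). With the dimmer _s_at probe set r was 0.71 and rho 0.75 (permutation p = 0.014 and 0.011, adjusted p = 0.087 and 0.081). Without the line labelled female 3 and male 5 these r values were 0.34, 0.64 and 0.71 in the same order. None of the 3 passed the adjustment.

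The processing genes did not share the order of the heavy chains. Among the 15 pairs of an HLA probe set with TAP1, PSMB8 or PSMB9, r ran from -0.50 to 0.21 with a median of -0.17, and 4 were positive. Among the 8 pairs of HLA probe sets of different genes it ran from 0.57 to 0.81 with a median of 0.67. Among the 15 pairs of an HLA with a B2M probe set the median was 0.62. Family-matching probe sets share probe sequence, so their r values are not independent of one another. The difference between these blocks of pairs was not tested.

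TAP1, PSMB8 and PSMB9 were positively related to one another, but no pair passed the threshold. TAP1 and PSMB8 had r = 0.47 (permutation p = 0.14, adjusted p = 0.40 over the 5 planned) and rho = 0.75 (permutation p = 0.00997, adjusted p = 0.081 over the 51). TAP1 and PSMB9, neighbours on the chromosome, had r = 0.28 and rho = 0.38 (permutation p = 0.42 and 0.25, adjusted p = 0.71 for r). PSMB8 and PSMB9 had r = 0.45 and rho = 0.28 (permutation p = 0.16 and 0.40, adjusted p = 0.40 for r). PSMB9 and IRF1, a transcription factor of the interferon response, had r = 0.054 and rho = -0.26 (permutation p = 0.89 and 0.44, adjusted p = 0.89 for r). Leaving out the 2 arrays farthest from the median of the first-named gene gave r = 0.58, 0.12, 0.29 and -0.63 for these 4 pairs. The share of probe sets at the lowest value moved with PSMB8 (r = 0.76, rho = 0.83, permutation p = 0.0068 and 0.0030, adjusted p = 0.05001 for r over 22) and r was 0.75 without males 2 and 3. TAP1 had r = 0.56 and rho = 0.63 with that share (permutation p = 0.070 and 0.044, adjusted p = 0.22 for r). Without males 2 and 3 the r of TAP1 was 0.60. PSMB9 had r = 0.057 with the share. The part of the share in the relations of PSMB8 and TAP1 was not tested.

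**Figure D3:**
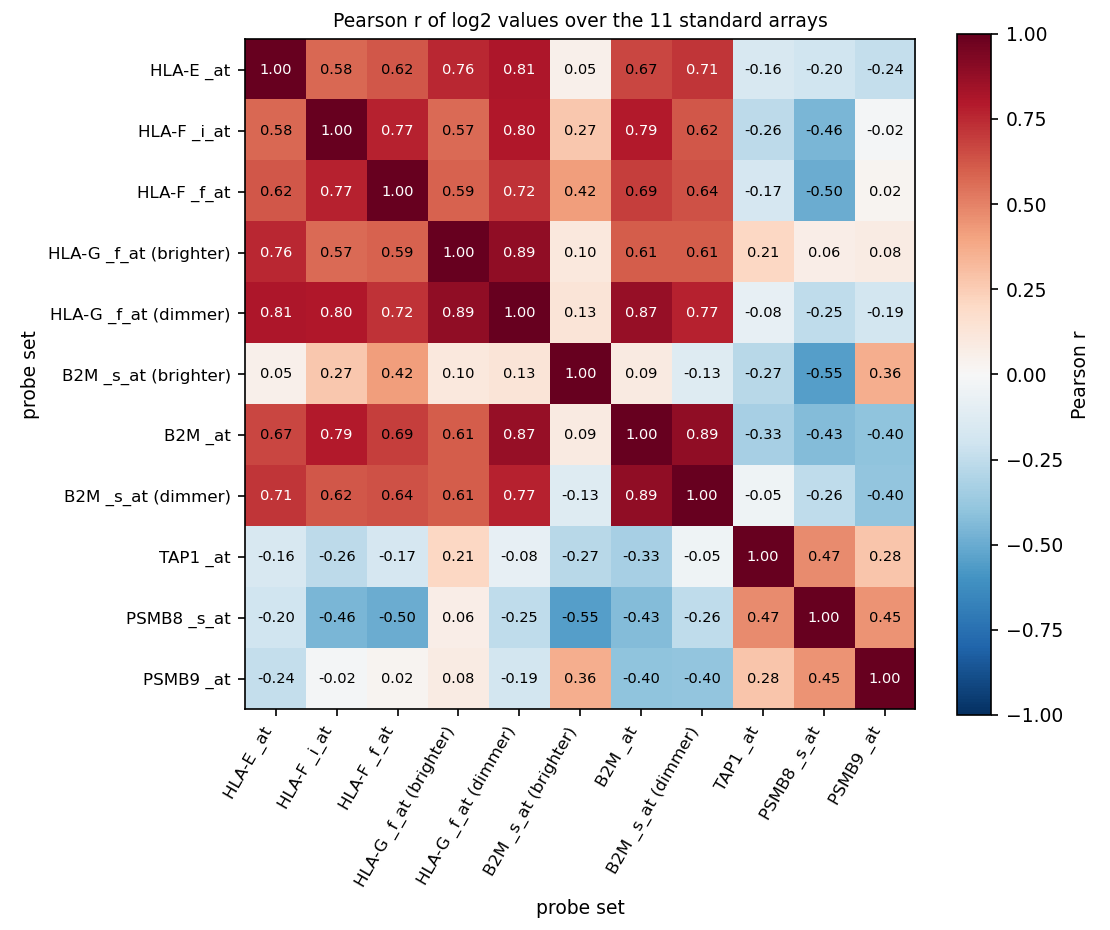
Pearson r between log2 values of the 11 member probe sets over the 11 standard arrays, with rows and columns in the same order and colour from -1 to 1. The HLA probe sets and the B2M _at and dimmer _s_at probe sets form a block of positive r, the brighter B2M _s_at probe set stands apart, and TAP1, PSMB8 and PSMB9 have r between 0.28 and 0.47 with one another.

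Replication genes were inversely related to the class I probe sets, without passing the threshold. The mean of the helicase genes MCM2 to MCM7, a mark of cells preparing to divide, had r from -0.39 to -0.76 with the 5 HLA probe sets. For the dimmer HLA-G probe set r was -0.76 and rho -0.75 (permutation p = 0.0063 and 0.011, adjusted p = 0.05001 for r over 22). The B2M _at probe set had r = -0.68 and rho = -0.76 (permutation p = 0.023 and 0.0090, adjusted p = 0.13 for r). Without the line labelled female 3 and male 3, the extremes of the MCM mean, these r values were -0.86 and -0.84. TAP1, PSMB8 and PSMB9 had r of 0.34, 0.36 and 0.15 with it. None of the 22 relations passed the threshold for r.

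Genes outside the members with the pattern most like them over the 11 lines were named by a rule. Among 4131 probe sets above the lowest value on all standard arrays, HLA-E was most like CTSA, a lysosomal protective protein, with r = 0.94. Next came DPP4, a surface peptidase, with 0.93, and GDF15, a stress-induced cytokine, with 0.92. CTSA had 1633 in female 5 and 5221 in the line labelled female 3, and DPP4 had 314 and 3061. TAP1 was most like MBNL1, MFAP1 and RGS10 (r = 0.88, 0.84 and 0.83), and PSMB9 most like PDCD10, GNA11 and PPP2R2A (0.87, 0.84 and 0.82). B2M on its brightest probe set was most like THBS1, LUZP1 and ENSA (0.90, 0.88 and 0.85). These are the highest of 4131 values for each member.

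Lines labelled male and female were compared over the 11 standard arrays with limma, where each array is another line. None of the 11 member probe sets passed an adjusted p of 0.05, and 0 of the 7541 tested did (0%). At an unadjusted p under 0.05 there were 0 members, against 5.28% of all probe sets tested. The HLA-F _i_at probe set differed by -0.77 log2 units male minus female (SE 0.52, adjusted p = 0.89), or -0.28 in adults only. Its other probe set gave 0.19 (SE 0.28). TAP1 differed by 0.32 (SE 0.26, adjusted p = 0.89), where males had a mean intensity of 330 ± 84.6 (SD, n = 5) against a female mean of 261 ± 67.7 (SD, n = 6). HLA-E differed by -0.19 (SE 0.44), or 0.098 without the line labelled female 3. HLA-G differed by -0.23 (SE 0.36) on the brighter probe set, or -0.0096 without that line, and by -0.25 (SE 0.24) on the dimmer, or -0.11 without it. The 3 B2M probe sets gave 0.069, -0.15 and 0.012, PSMB8 -0.11 and PSMB9 0.051. The members' median was -0.11, against -0.0081 over all tested.

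Spread, as a description, was wider among the female lines for the HLA probe sets and wider among the male lines for PSMB8 and PSMB9. The brighter HLA-G probe set had an SD of 0.91 log2 units in females and 0.27 in males. Without the line labelled female 3 the female SD was 0.81, and for HLA-E the order turned, from 0.93 to 0.69 in females against 0.83 in males. PSMB8 had 0.35 in females and 0.80 in males, and PSMB9 0.31 and 0.59. The low value of male 2 and the high value of male 1 set the male spread of both. PSMB10, the third immunoproteasome subunit, went the other way, with 0.47 in females and 0.23 in males. Without the line labelled female 3 its female SD was 0.39. The difference in spread was not tested.

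**Figure D4:**
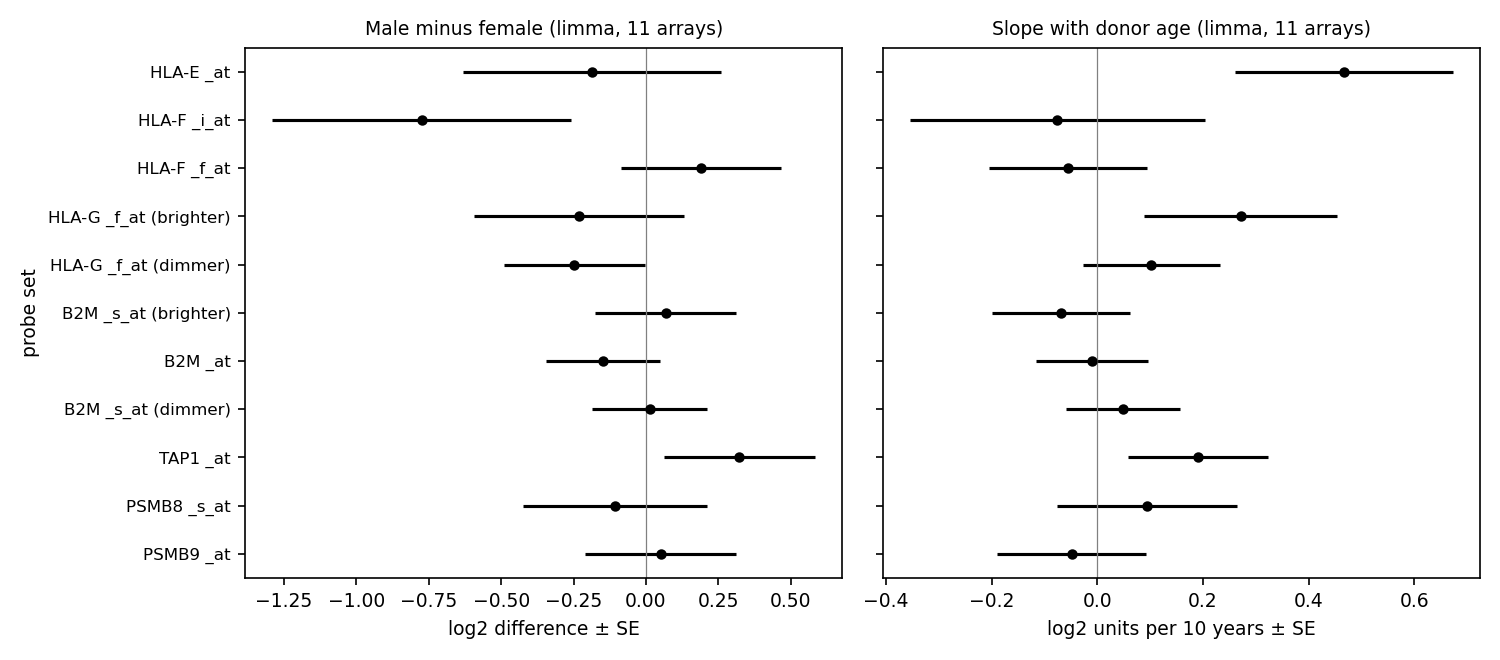
Estimates for the 11 member probe sets from limma over the 11 standard arrays, with male minus female on the left (log2 units) and the slope per 10 years of donor age on the right, bars giving the SE. No estimate passed the threshold, and HLA-E had the steepest slope with age, 0.47 per 10 years.

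Donor age, as the labels give it, was fitted over the same arrays with sex as a covariate. Again 0 of 11 members passed the adjusted threshold, beside 0 of 7541 (0%) in limma. At an unadjusted p under 0.05 there was 1 member, HLA-E, against 5.4% of all probe sets. Its slope was 0.47 log2 units per 10 years (SE 0.21, unadjusted p = 0.040, adjusted p = 0.88). Its intensities were 199 and 100 in the donors of 2 and 3 years, 108 in the donor of 30 years and 709 in the line labelled female 3, labelled 35 years. Without that line the slope was 0.30, and without female 5 it was 0.64. HLA-G had 0.27 (SE 0.18) on the brighter probe set, or 0.12 without the line labelled female 3 and 0.032 without females 3 and 6 together. On the dimmer it had 0.10 (SE 0.13), or -0.0080 and 0.050 in those fits. TAP1 had 0.19 (SE 0.13). The other 7 probe sets had slopes of -0.075 to 0.094. The slope did not differ detectably between the sexes for any member (limma interaction, lowest unadjusted p = 0.026 for the HLA-F _i_at probe set, adjusted p = 0.999, 0 of 7541 called).

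The ratios of 3' to 5' intensity, which can reflect RNA degradation, also differed between the youngest and the oldest donors. For ACTB, female 6 and male 5, the youngest donors, had ratios of 0.84 and 0.67, while females 5 and 3, the oldest, had 1.17 and 1.19. For GAPDH the order turned, with 1.28 and 1.30 against 0.82 and 0.87. Males 2 and 4, from donors of 26 and 18 years, had GAPDH ratios of 1.30 and 1.34, like the youngest. The part of these ratios in the slope of HLA-E was not tested.

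In line KB_7621, class I heavy chain signal was lower in the culture at 50% confluence than in the standard culture. Each condition had 1 array, so the differences have no replicate check and no test. HLA-E had an intensity of 426 in the standard culture and 141 at 50% confluence, 2.51-fold lower on the normalized scale. HLA-F on the _f_at probe set had 3336 and 1571 (2.29-fold lower) and on the _i_at probe set 496 and 230 (1.91-fold). HLA-G on the brighter probe set had 2101 and 1074, and normalization raised the ratio of 1.96 to 2.05-fold. On the dimmer it had 1315 and 915 (1.56-fold). Outside the members, the probe set that carries both the HLA-B and HLA-C symbols had 17981 and 10803, only 1.25-fold lower after normalization. HLA-J had 3108 and 1134 (2.93-fold lower).

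All 5 member HLA probe sets were lower, 3 of them by 2-fold or more, and 46.1% of the 7541 tested were lower. Among the 11 members 3 were lower by that much, beside 7.23% of all tested, and 1 was higher by 2-fold or more, beside 7.04%. The median difference of the 5 HLA probe sets was -1.03 log2 units and that of all 11 members -0.52, against 0 over all tested. With median scaling, the median over all tested rose to 0.43, and that of the HLA probe sets was -0.59, so relative to all probe sets it was -1.02. All 5 HLA probe sets stayed lower under that scaling, 1 of them by 2-fold or more, beside 3.06% of all tested. The split of probe sets past 2-fold was 50.7% lower, 15% with median scaling and 69.2% in the values as deposited.

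The standard culture of male 2 was itself one of the brighter lines for class I. At 50% confluence none of the HLA probe sets left the range of the 11 standard arrays. HLA-E at 50% confluence stood above 2 of the 11 standard lines, HLA-F on its probe sets above 6 and 1, and HLA-G above 1 and 3. Against the mean of the other 10 standard lines the median difference of the HLA probe sets was -0.49, and 0 members were lower by 2-fold. The HLA-F _i_at probe set had 0.058 in that comparison, and the other 4 HLA probe sets had differences of -0.28 to -0.74. The standard array of the pair had the highest maximum intensity of the 12, 43135, and the array at 50% confluence the lowest, 18027. The MCM mean was 8.62 log2 units in the standard culture and 9.33 at 50% confluence, the summed fibroblast marker intensity 154434 and 112177, and that of the leukocyte markers 2880 and 2294. Their part in these differences was not tested.

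After quantile normalization B2M was lower by less than any of the 5 member HLA probe sets. The probe set with both HLA-B and HLA-C symbols, not a member, was lower by 1.25-fold, less than B2M on its _at and brighter _s_at probe sets. On the _at probe set B2M had 10061 in the standard culture and 7310 at 50% confluence (1.37-fold lower). On the dimmer _s_at it had 17407 and 11348 (1.14-fold lower), and on the brighter _s_at 31535 and 12587 (1.43-fold lower). The order turned for the brighter with other scaling, where it had -1.33 log2 units as deposited and -0.83 with median scaling. The HLA probe sets had -0.52 to -1.60 and -0.028 to -1.10 in those values. On the _at probe set the sign turned with median scaling, to 0.034 log2 units.

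The processing genes did not follow the heavy chains. PSMB8, on its _s_at probe set, had 156 in the standard culture and 362 at 50% confluence, 2.83-fold higher, or 0.93 log2 units with a floor of 200. The value of 156 was the lowest of the 11 standard lines, and against the mean of the other 10 the difference was 0.015 log2 units. TAP1 had 314 and 344 (1.24-fold higher). PSMB9 had 556 and 501, a log2 difference of -0.096, or 0.34 with median scaling. At 50% confluence PSMB9 lay below all 11 standard arrays, as did 4.76% of all probe sets tested, and 0 members lay above all of them, against 6.83%.

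**Figure D5:**
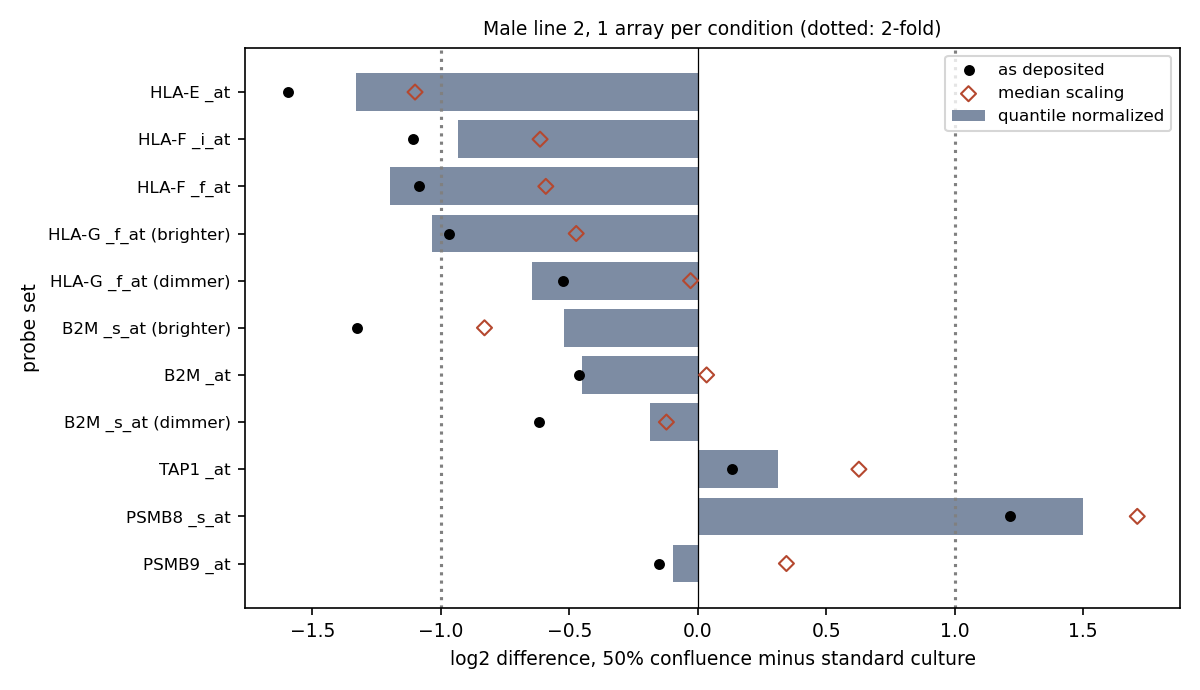
Log2 difference between the culture of male line 2 at 50% confluence and its standard culture, with bars for quantile-normalized values, points for values as deposited and diamonds for median scaling, and dotted lines at 2-fold. The 5 HLA bars lie between -0.64 and -1.33, and PSMB8 is the one member higher by 2-fold or more.

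The partners of these genes were read from lists of 101 genes. Of the proteasome list, 16 of 18 genes were tested on 19 probe sets, and limma called 0 of them by sex and 0 by age. At 50% confluence 14 of the 19 were higher, beside 48.3% of all tested, with a median of 0.37 log2 units. The constitutive subunit PSMB7 was higher by 1.18 on one probe set and 0.73 on another. PSMA7, a structural subunit, had 327 in the standard culture and 100 at 50% confluence, at least 3.27-fold lower. PSMB10, the remaining immunoproteasome subunit, had 988 and 799, within its range of 623 to 1519 over the standard lines. PSME1, a part of the interferon-inducible proteasome activator, had 704 and 928, and 485 to 1264 over those lines. PSME3, another activator, had an unadjusted p of 0.013 for sex (0.82, SE 0.29) and 0.014 for age (0.36, SE 0.13), with adjusted p = 0.89 and 0.85.

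In the peptide loading list 9 probe sets were tested and limma called 0 by sex and 0 by age. Calreticulin, CALR, a chaperone of the loading complex, was lower at 50% confluence on both its probe sets. It had 2438 and 437 on one (log2 difference -2.45) and 4513 and 1803 on the other (-1.40), below all 11 standard arrays on both. TAPBP, tapasin, which bridges TAP and the heavy chain, had 1337 and 1449, and 1337 to 2226 over the standard lines. TAP2, the other transporter subunit, was at 100 on all arrays but the line labelled female 3, with 160, and male 3, with 187. BLMH, a cytosolic peptidase, had a male minus female difference of 0.49 on one probe set (SE 0.21, unadjusted p = 0.033, adjusted p = 0.89) and 0.16 on the other. Without the line labelled female 3 the first was 0.44 (unadjusted p = 0.064).

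Regulators and interferon pathway genes had 28 probe sets tested, with 0 called by sex and 0 by age in limma. IRF1 had a slope with age of 0.55 log2 units per 10 years (SE 0.15, unadjusted p = 0.0034, adjusted p = 0.83). Female 6 and male 5, from the youngest donors, both stood at 100, and adult lines ranged between 119 and 428. IFNGR2, a chain of the interferon gamma receptor, differed by -0.50 male minus female (SE 0.23, unadjusted p = 0.048), and IFNAR2, a chain of the type I interferon receptor, had a slope of 0.24 with age (SE 0.11, unadjusted p = 0.049). Without the line labelled female 3 these were -0.39 and 0.13, at unadjusted p = 0.11 and 0.26. IFNAR2 was at 100 on 7 of the 11 arrays, and its other 2 probe sets were too dim to be tested. At 50% confluence IRF2, another interferon regulatory factor, had a log2 difference of -1.04. IRF8 had 261 in the standard culture of male 2 and 100 at 50% confluence, at least 2.61-fold lower, and was at 100 on 8 of the 11 standard arrays.

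Interferon-stimulated genes outside the members had 24 probe sets tested, 0 of them called by sex or by age in limma. Of these, 15 were lower and 7 higher at 50% confluence, beside 46.1% and 48.3% of all tested, with a median of -0.11 log2 units. IFIT3 was lower by a difference of -1.16. OAS2 had 228 in the standard culture and 100 at 50% confluence, at least 2.28-fold lower. Its other probe set was at 100 on all 12 arrays. By sex, ISG15 had an unadjusted p of 0.0042 on one probe set (-0.95, SE 0.28), with 3 of the 11 arrays at 100, and -0.0064 on the other, and IFITM2 one of 0.021 (-0.72, SE 0.28). By age, IFIT3 had a slope of 0.38 (SE 0.14) and MX2 one of -0.38 (SE 0.14), at unadjusted p = 0.015 and 0.016. Without the line labelled female 3 these were 0.32 and -0.35, at unadjusted p = 0.064 and 0.050.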

How the data were processed

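Expression was measured on 12 arrays of gorilla fibroblast RNA. The authors deposited 1 intensity per probe set and array, whole numbers on a linear scale with a lowest value of 100. No source used here names the software, the scaling or the floor. Precision is limited by how many arrays there are. Gene symbols came from the array's annotation, which gives 1 symbol for 10961 probe sets, several for 545, and does not list 1119. The gorilla gene table (assembly NHGRI_mGorGor1-v2.1) held 4 of the 7 member symbols and was used for names and neighbours. No sequence or coordinate is given.

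Values were taken to log2 and quantile normalized, since array medians ran from 6.71 to 7.21. The 67 control probe sets were left out, and probe sets with a mean log2 value over 12 arrays above the 40th percentile of such means were tested. The 7541 left were fitted by lmFit and eBayes of limma 3.58.1 (R 4.3.3) and called at a Benjamini-Hochberg adjusted p under 0.05. P-values measure the spread between lines. Relations used Pearson's r and Spearman's rho with 100000 two-sided permutations. Each gene of a planned relation was taken by its brightest probe set. The steps were tested on simulated arrays, where 50% of 200 probe sets changed 2-fold between the sexes, and 96.5% of those changed 4-fold, were recovered.

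Genes named outside the members are TAP2, TAPBP, PSMB10, PSME1 and IRF1 (PSME2 had no single-symbol probe set), list genes with an unadjusted p under 0.05 or a 2-fold difference, the 3 genes most like 4 members, and HLA-J, CIITA, HLA-DPB1, ACTB, GAPDH, RPS4Y1, the MCM genes and the other markers, chosen otherwise. Members and lists were chosen with earlier results of these data known. Alternatives were values as deposited, median scaling, other filters and floors, array weights, lines left out, adults only, log2 of age and an exchanged array. Chosen after seeing the data were the relations beyond the planned ones, the other B2M probe sets, the comparison with the other 10 lines the fit without females 3 and 6, and spread and list genes without female 3.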

Additional observations from a re-analysis of the deposited data

Results flagged for a closer look

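Each member probe set was checked for a line standing far from the rest of its group, in 22 checks (11 probe sets in the females and in the males). One line stood out. The dimmer HLA-G probe set had 1315 in male 2 and 969 in the next highest male line, a gap of 0.795 of the range of the 5 male lines in log2 units, above Dixon's critical value of 0.71. Chance gives such a gap in about 1 in 20 groups, so 1 in 22 checks is near that rate. No member's slope with age differed between the sexes after adjustment.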

How the results depend on the processing

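Over all alternatives run, limma called 0 members by sex or by age. Among all probe sets the sex comparison called 1 without the line labelled female 3 and 0 without any other single line, and 2 with the array at 50% confluence replacing the standard array of that line. For age it was 0 in every alternative. In the comparison by confluence, the median of the members was -0.12 with median scaling. There 1 member was lower by 2-fold or more, beside 3.06% of all tested, and 0 were so against the mean of the other 10 lines. The 5 planned relations were run on values as deposited, with median scaling, with a floor of 200 and without the line labelled female 3, and that of B2M and HLA-E on the other B2M probe sets. They kept their sign and passed the threshold in none of these, though PSMB9 with IRF1 turned without 2 arrays (r = -0.63). Estimates of members turned sign in 21 of 209 values for sex and 23 of 242 for age, none of them called. For sex these were PSMB8 with a floor of 200 (0.0081), HLA-E in adults (0.014), and, with the exchanged array, the HLA-F _f_at probe set (-0.049), the brighter (-0.035) and dimmer (-0.025) B2M _s_at probe sets and PSMB8 (0.19). For age they were the B2M _at probe set in values as deposited (0.014), with median scaling (0.057), in adults (0.16) and with no sex covariate (0.0052). The HLA-F _f_at probe set had 0.0098 with median scaling, 0.046 in adults and 0.025 without females 3 and 6 together. The HLA-F _i_at probe set had 0.21 in adults, 0.0058 with no sex covariate and 0.36 without females 3 and 6. PSMB9 had 0.0022 with median scaling, and the brighter B2M _s_at probe set and PSMB8 had 0.014 and -0.17 without females 3 and 6. The cause was not tested. Leaving out 1 line at a time, the sex difference ran from -0.44 to 0.12 (HLA-E), -0.0082 to 0.29 (HLA-F, _f_at), -0.034 to 0.27 (B2M, brighter _s_at), -0.067 to 0.12 (B2M, dimmer _s_at), -0.30 to 0.22 (PSMB8) and -0.20 to 0.18 (PSMB9). The age slope ran from -0.35 to 0.44 and -0.16 to 0.13 (HLA-F, _i_at and _f_at), -0.0080 to 0.19 (HLA-G, dimmer), -0.074 to 0.075 and -0.012 to 0.13 (B2M, _at and dimmer _s_at), -0.068 to 0.24 (PSMB8) and -0.11 to 0.0054 (PSMB9). The median SD of the members ran from 0.42 to 0.49. No paired analysis was possible because replicate numbers were given in accession order and pair nothing. Intensities near 100, as of HLA-E, the HLA-F _i_at probe set and TAP2, limit what can be read from low values.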

Other observations

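Class I related genes outside the peptide-loading pathway had 8 probe sets tested. FCGRT, the neonatal Fc receptor, which also pairs with B2M, ran from 265 to 1462 over the standard lines on one probe set and from 322 to 1701 on the other, with female 5 lowest and female 4 highest on both. In line KB_7621 the first had 1198 in the standard culture and 445 at 50% confluence and the other 1469 and 598, log2 differences of -1.47 and -1.32. MR1, which presents vitamin B metabolites to T cells, had differences of -1.13, -0.61 and 0.086 on its 3 probe sets. MICA, a stress ligand of natural killer cells, had a slope with age of -0.29 per 10 years (SE 0.11, limma, unadjusted p = 0.024, adjusted p = 0.85). MHC class II genes had 7 probe sets tested, of which 6 were lower and 0 higher at 50% confluence, beside 46.1% and 48.3% of all tested. HLA-DRA, the class II alpha chain, had 231 in the standard culture and 100 at 50% confluence, at least 2.31-fold lower. HLA-DPB1, a class II beta chain, was too dim to be tested and went the other way, with 154 and 199 on one probe set and 100 and 130 on the other, both above all 11 standard arrays at 50% confluence. CIITA, the class II transactivator, was at 100 on all 12 arrays.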
